A study of Homo sapiens with 7 samples.

Results

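NF-kB subunits and the IkB proteins that inhibit them were followed as 9 named genes in RNA sequencing libraries of cells given PTH or PBS. The subunit genes were Rela, Rel, Relb, Nfkb1 and Nfkb2, and the inhibitor genes were Nfkbia, Nfkbib, Nfkbie and Nfkbiz. They are 9 of 21780 symbols in the authors' tables. They were chosen by family name, with earlier results of these data known. The measured value used to pick a row, the mean FPKM over the 7 libraries where a symbol repeats, decided nothing here because each of the 9 had 1 row.

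The study compared 4 libraries of cells given PTH (parathyroid hormone) with 3 libraries of cells given PBS, a buffer without hormone. All 7 are labelled as LX2, an established human line of hepatic stellate cells, the liver cells that lay down scar matrix. Neither dose nor duration is given in the sources used here, and nothing says that each library is its own culture, so the p-values cover the library-to-library spread alone, and that spread may be technical. Every identifier in the tables is a rat gene although the labels name human cells, so the rat symbols are kept and no coordinates are taken from the tables.

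NF-kB proteins act as dimers that bind DNA and switch on inflammatory and survival genes. RelA, c-Rel and RelB carry activation domains, whereas the Nfkb1 and Nfkb2 products p105 and p100 are precursors that hold other subunits in the cytoplasm until they are processed to p50 and p52. IkB-alpha, IkB-beta and IkB-epsilon keep dimers out of the nucleus, and after a signal the IKK complex phosphorylates them, which marks them for degradation. NF-kB itself activates the IkB-alpha gene, so that the inhibitor returns and closes the loop. IkB-zeta, the Nfkbiz product, sits in the nucleus and can support or block transcription at selected promoters. In stellate cells the pathway is known for chemokine output and for survival of activated cells.

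Promoter sequences of human counterparts are shown because several of the genes fell together. The 10-base NF-kB consensus was searched on both strands in the 250 bases before each annotated gene start of the RefSeq promoter table (GRCh38.p14), and overlapping matches were counted as 1 stretch. The table matched 7 of the 9 members with 13 windows, all members but RELB and NFKBIE. A match was present for 6 of these 7 members, against 6.28% of all 27305 symbols. By window, it was present in 8 of their 13 windows, against 5.21% of all 35116 windows. RELA had no match in either of its windows. Below, each first matching window of the 3 genes that passed the test and of NFKB2, which did not pass, is printed 5′ to 3′ with the consensus in capitals.
NFKBIA, chr14:35404750-35404999, minus strand: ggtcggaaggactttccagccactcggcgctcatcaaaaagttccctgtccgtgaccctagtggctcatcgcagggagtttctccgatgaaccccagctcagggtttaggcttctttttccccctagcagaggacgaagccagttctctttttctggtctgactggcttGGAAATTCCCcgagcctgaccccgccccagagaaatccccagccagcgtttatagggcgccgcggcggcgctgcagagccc
NFKB1, chr4:102501109-102501358, plus strand: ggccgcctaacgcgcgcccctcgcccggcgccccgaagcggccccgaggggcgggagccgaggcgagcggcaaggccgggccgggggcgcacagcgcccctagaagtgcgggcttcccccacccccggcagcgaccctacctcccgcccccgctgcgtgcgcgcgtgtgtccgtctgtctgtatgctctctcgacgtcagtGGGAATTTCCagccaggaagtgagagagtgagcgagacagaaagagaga
NFKBIZ, chr3:101827740-101827989, plus strand: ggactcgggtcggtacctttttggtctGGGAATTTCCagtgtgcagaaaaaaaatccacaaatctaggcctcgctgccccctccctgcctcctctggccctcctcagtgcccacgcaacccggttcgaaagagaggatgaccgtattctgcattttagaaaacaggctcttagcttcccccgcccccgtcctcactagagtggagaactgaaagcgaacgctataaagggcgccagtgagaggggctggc
NFKB2, chr10:102394328-102394577, plus strand: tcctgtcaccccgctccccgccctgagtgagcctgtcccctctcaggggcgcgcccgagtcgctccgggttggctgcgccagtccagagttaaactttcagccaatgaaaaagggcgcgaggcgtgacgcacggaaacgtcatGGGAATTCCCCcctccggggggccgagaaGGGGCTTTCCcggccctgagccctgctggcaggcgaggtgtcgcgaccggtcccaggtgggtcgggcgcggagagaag

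The first letter of the match lay 81 bases before the start in NFKBIA, 49 bases before it in NFKB1 and 223 bases before it in NFKBIZ. In the NFKB2 window 2 stretches lay 107 and 78 bases before the start. REL held GGGAAATTCCC 47 bases before its start and NFKBIB held GGGAATTTCCC 28 bases before that of its second window. Matches were thus present both in genes that fell and in genes that did not pass the test, and a match in these letters is a description, not a binding site measured here. The cells are labelled human and the tables carry rat identifiers, so these windows belong to the human genes only.

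Summed FPKM ran from 472621 to 509859 in the PTH libraries and from 519845 to 532909 in the PBS libraries. FPKM gives no read totals, but its smallest steps gave a relative depth, at which PTH library 1 was 1.70 times and the PBS libraries 1.23 to 1.38 times as deep as PTH library 4. Mitochondrial mRNAs took 0.867 to 3.61% of the summed FPKM in the PTH libraries and 5.78 to 5.90% in the PBS libraries. Of the stellate markers Vim, Col1a1, Col3a1, Des and Pdgfrb were detected, Lrat and Reln were listed at 0 throughout, and the hepatocyte markers Alb and Hnf4a and the leukocyte marker Ptprc were listed at 0. Other markers of these lists were detected, with Tf at 8.95 FPKM with PTH and 7.57 FPKM with PBS and Cd14 at 14.9 FPKM with PTH and 17.4 FPKM with PBS on average. Hp, a hepatocyte marker, fell to at most 0.846 FPKM with PTH, against 1.65 to 2.46 FPKM with PBS (limma adjusted p of 0.0469), and its part in the results was not tested. Summed stellate markers ran from 1378 to 1877 FPKM with PTH and from 1094 to 1175 FPKM with PBS, with Vim called higher and Dcn lower, and their part in the results was not tested. Summed markers of hepatocytes, leukocytes and endothelium overlapped between the groups, and those of cholangiocytes, nearly all Spp1, ran from 284 to 323 FPKM with PTH and from 344 to 354 FPKM with PBS. Among 10662 tested genes 849 were called lower and 368 higher with PTH, a split of 30.2% higher that became 53.7% after quantile normalization and 51.7% after median centring.

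Nfkbiz, Nfkbia and Nfkb1 fell with PTH, while Rela, which encodes the main activating subunit, did not pass the test at a log2 fold change of -0.0073 (95% interval -0.16 to 0.14, adjusted p of 0.947). Thus 3 of 9 members were called lower and 0 higher, where 7.96% of all tested genes were called lower and 3.45% higher. The calls come from limma on log2(FPKM + 1), with p adjusted by Benjamini-Hochberg over every gene whose mean reached 1 FPKM, a filter that all 9 members passed. In 4 members, the same 3 and Rel, every PTH library lay below every PBS library, against 20.8% of tested genes. Fewer cells with a transcript and less of it per cell cannot be told apart in such bulk samples.

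**Figure D1:**
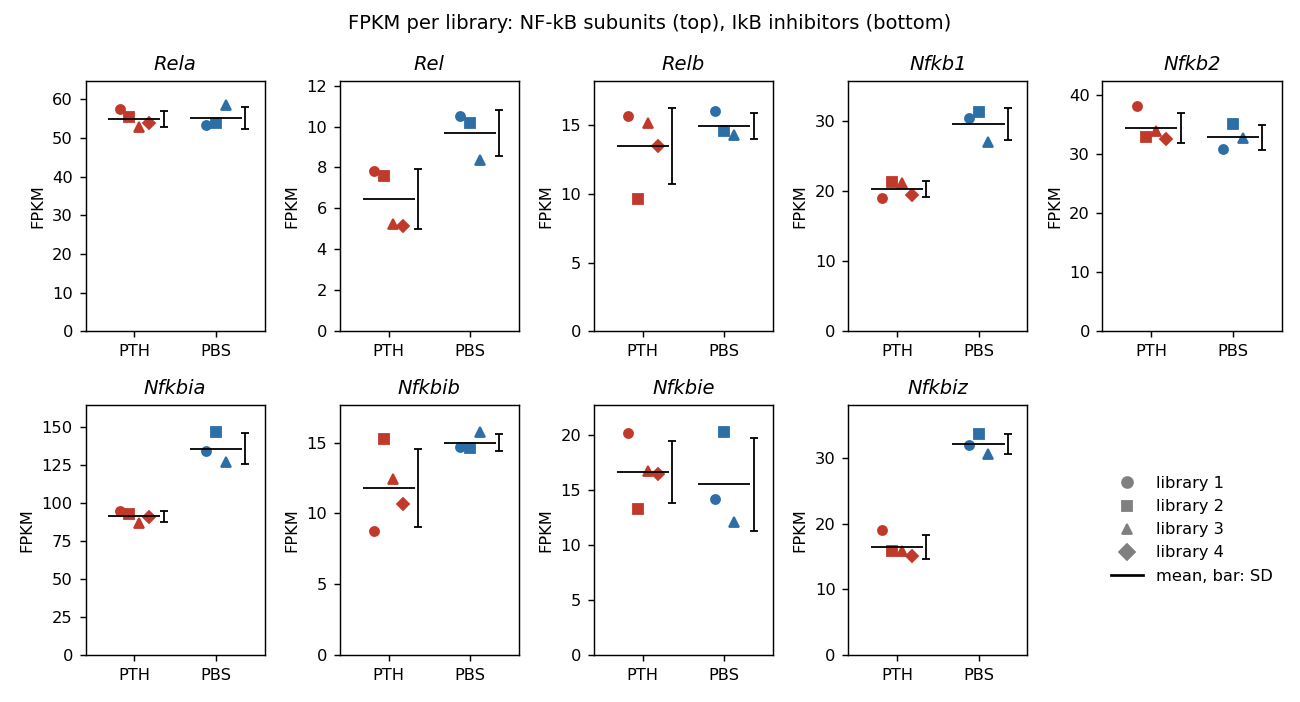
FPKM of each member in the 4 PTH and 3 PBS libraries, with the mean (line) and SD (bar), each axis starting at 0. Nfkb1, Nfkbia, Nfkbiz and Rel show no overlap between the groups, whereas the other 5 members do.

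Among the inhibitors Nfkbiz had the largest change. It stood at 19.1, 15.8, 15.8 and 15.1 FPKM in PTH libraries 1 to 4, against 32.1, 33.8 and 30.6 FPKM in PBS libraries 1 to 3. The groups were separated by more than 11 FPKM and PTH library 1 was the highest of its group. Its mean was 16.5 ± 1.80 FPKM with PTH (SD, n = 4) and 32.2 ± 1.56 FPKM with PBS (SD, n = 3), a 1.95-fold fall. The log2 fold change was -0.93 ± 0.10 (SE) with a limma adjusted p of 0.00373, rank 24 among all tested genes. Nfkbiz kept its call in all 7 fits that lacked a single library, and their adjusted p ran from 0.00132 to 0.0390.

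Nfkbia, the feedback inhibitor, was the most abundant member in every library. It stood at 94.4, 93.0, 86.5 and 90.5 FPKM in the PTH libraries and at 134, 147 and 127 FPKM in the PBS libraries. The groups did not overlap, and the PTH libraries were closer to one another than the PBS libraries, with a coefficient of variation of 3.79% against 7.44%. The means of 91.1 ± 3.45 FPKM with PTH (SD, n = 4) and 136 ± 10.1 FPKM with PBS (SD, n = 3) correspond to a 1.49-fold fall. Its log2 fold change was -0.57 ± 0.07 (SE) with a limma adjusted p of 0.00755. The call was lost without PBS library 1, at an adjusted p of 0.0672, and was kept without each of the other libraries.

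The remaining inhibitors did not pass the test. Nfkbib, which encodes the IkB-beta protein that is not rebuilt by the same fast loop, stood at 8.77, 15.3, 12.4 and 10.7 FPKM with PTH and at 14.7, 14.6 and 15.7 FPKM with PBS. PTH library 2 lay among the PBS values and the other PTH libraries lay below them. Its log2 fold change of -0.35 had a 95% interval of -0.72 to 0.02 and an adjusted p of 0.170, which became 0.0358 without PTH library 2. Nfkbie, the IkB-epsilon gene, stood at 20.1, 13.2, 16.7 and 16.5 FPKM with PTH and at 14.2, 20.2 and 12.1 FPKM with PBS, so that the PBS values spanned those with PTH. Its log2 fold change of 0.11 had an interval of -0.31 to 0.54 (adjusted p of 0.696), turned to -0.04 without PBS library 3 and to -0.02 after GC correction.

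Of the subunits Nfkb1, the p105 and p50 gene, was the one that fell. It stood at 19.0, 21.3, 21.2 and 19.5 FPKM with PTH and at 30.5, 31.2 and 27.0 FPKM with PBS. All PTH libraries lay within 3 FPKM of one another and below the lowest PBS library. The means were 20.3 ± 1.16 FPKM with PTH (SD, n = 4) and 29.6 ± 2.28 FPKM with PBS (SD, n = 3), a 1.46-fold fall. On the log2 scale the change was -0.52 ± 0.08 (SE), at a limma adjusted p of 0.0187. Leaving out single libraries ended the call for PTH library 3 (adjusted p of 0.0645), PBS library 1 (0.131) or PBS library 2 (0.0977).

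Rel, which encodes c-Rel, was the least abundant member in every library. It stood at 7.84, 7.59, 5.25 and 5.15 FPKM with PTH and at 10.5, 10.2 and 8.39 FPKM with PBS. The PTH values formed a higher and a lower pair, all below the PBS values. The log2 fold change was -0.53 ± 0.17 (SE), a size like that of Nfkb1 but with a wider interval of -0.92 to -0.15, and the adjusted p was 0.0713. It passed when PTH library 1 (adjusted p of 0.0492) or PTH library 2 (0.0405) was left out, and the authors' deposited table gives it an FDR of 0.0223.

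Rela, Nfkb2 and Relb overlapped between the groups. Rela stood at 57.6, 55.4, 52.7 and 53.9 FPKM with PTH and at 53.4, 53.7 and 58.5 FPKM with PBS, the narrowest relative spread among the subunits. Its sign turned with the scaling, with log2 fold changes of 0.068 after quantile normalization and 0.064 after median centring. Nfkb2, the p100 and p52 gene of the slower non-canonical branch, stood at 38.1, 32.9, 33.8 and 32.6 FPKM with PTH and at 30.8, 34.97 and 32.6 FPKM with PBS. Its log2 fold change of 0.06 had an interval of -0.13 to 0.25 (adjusted p of 0.615) and was -0.09 after GC correction. Relb, the partner of p52 in that branch, stood at 15.7, 9.63, 15.2 and 13.5 FPKM with PTH and at 16.1, 14.6 and 14.3 FPKM with PBS, where PTH library 2 was the lowest of all. Its log2 fold change was -0.16, with an interval of -0.52 to 0.20 (adjusted p of 0.501), and -0.02 without PTH library 2.

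**Figure D2:**
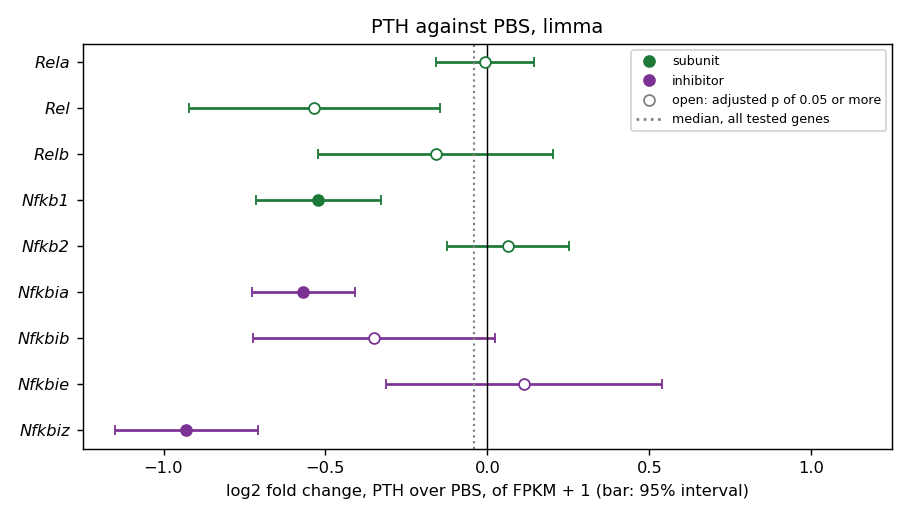
Log2 fold changes of the 9 members, PTH over PBS, with 95% intervals from limma (closed points passed at an adjusted p under 0.05). Nfkbiz lies farthest to the left at -0.93, and the intervals of Rela, Relb, Nfkb2, Nfkbib and Nfkbie include 0.

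In the authors' deposited table Nfkb1, Nfkbia and Nfkbiz share the same FDR of 0.000651 and the same p-value of 5e-05, the lowest the table holds. That table gives log2 fold changes of -0.55, -0.58 and -0.97 for them. With an FDR under 0.05 as the rule it lists 4 members as lower, the same 3 and Rel, against 15.4% of the tested genes. Nfkbib had a p-value of 0.0483 and an FDR of 0.133 there.

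The 3 calls and Rel coincide with the lower end of GC content within the family. Across 9437 tested genes log2 fold changes were higher at higher GC content, read from the human counterpart transcript, with a Spearman correlation of 0.47 across genes, which share the 7 libraries and are not independent. GC content was 38.7% for Rel, 46.2% for Nfkbiz, 50.1% for Nfkb1 and 53.1% for Nfkbia, and 57.1 to 65.4% for the other 5 members. After GC correction Nfkbiz, Nfkbia and Nfkb1 kept their calls at log2 fold changes of -0.84, -0.59 and -0.50, and Rel stood at -0.29 with an adjusted p of 0.295. In limma with the mitochondrial share added to the model 0 members passed and 3 had an unadjusted p under 0.05, namely Nfkbiz, Nfkbia and Relb, all lower, against 8.69% of tested genes lower and 6.31% higher at that p. Nfkbiz stood there at -1.30 (adjusted p of 0.0539), Nfkbia at -0.62 (0.155) and Nfkb1 at -0.39 (0.360). The shares do not overlap between the groups, so share and PTH cannot be told apart. GC content's part in the results was not tested beyond this correction.

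**Figure D3:**
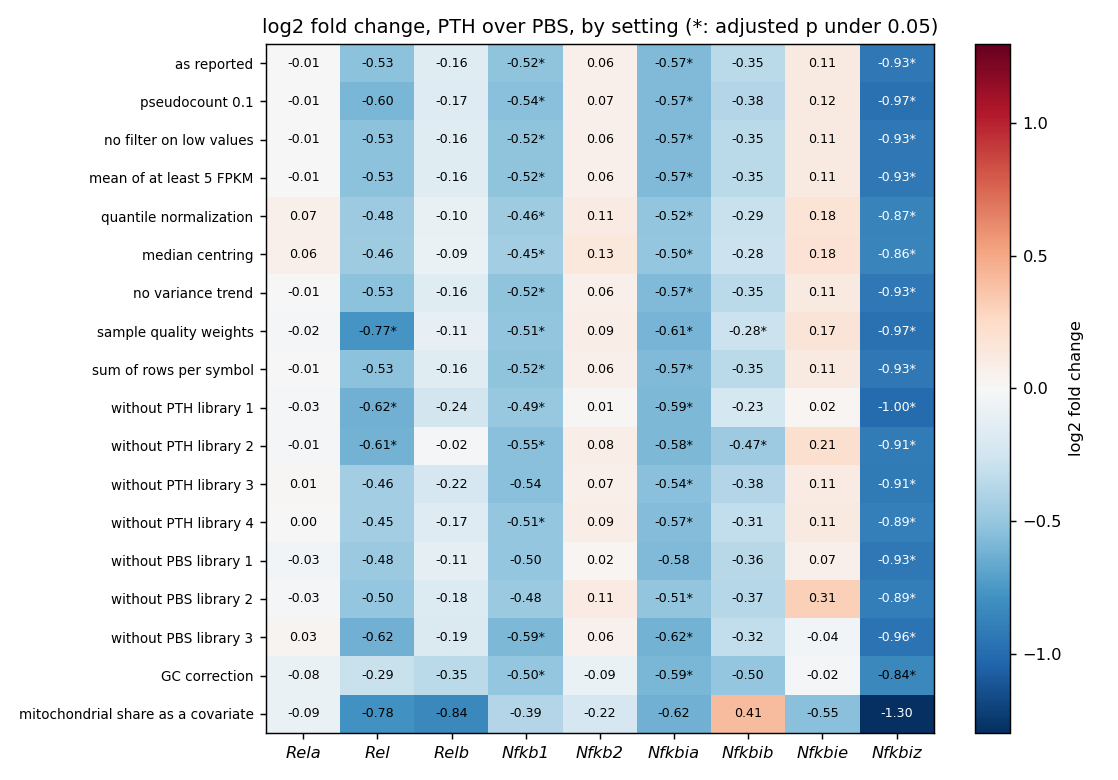
Log2 fold change of each member, PTH over PBS, as reported (top row) and under other settings, from blue (lower with PTH) to red (higher), with a star at an adjusted p under 0.05. Nfkbiz, Nfkbia and Nfkb1 stay below 0 in every row, and all 3 lack a star in the model with the mitochondrial share. A fit with a block for the replicate number is not drawn. In that fit these 3 genes were also below 0 and were not called. Their limma adjusted p there was 0.0579 (Nfkbiz), 0.0744 (Nfkbia) and 0.0895 (Nfkb1).

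Inhibitors as a class had a median log2 fold change of -0.46 and subunits one of -0.16, beside -0.04 over all tested genes. The inhibitor class counts Nfkbiz, whose product can also support transcription. Among the inhibitors other than Nfkbiz the middle value was -0.35, that of Nfkbib. Of the 4 inhibitors 2 were called lower, and of the 5 subunits 1 was, where 7.96% of all tested genes were called lower. With so few genes these counts do not compare the classes. In the PTH libraries 1 to 4 the inhibitors' median of log2 differences to the PBS average was -0.61, -0.36, -0.45 and -0.52, and that of the subunits 0.06, -0.31, -0.07 and -0.14. In PTH libraries 1 to 4 the inhibitor median less the subunit median was -0.68, -0.05, -0.38 and -0.38. In PBS libraries 1 to 3 it was -0.07, 0.02 and -0.02. PTH library 2, in which Relb was low and Nfkbib was not, thus lay within the PBS values. The subunit median was -0.02 without PTH library 2, -0.10 after quantile normalization, -0.09 after median centring, -0.29 after GC correction and -0.39 in the model with the mitochondrial share. For the log2 fold changes between the groups, the inhibitor median less the subunit median was -0.30. It ran from -0.17 without PTH library 1 to -0.51 without PTH library 2 and was -0.20 in the model with the mitochondrial share. These medians describe chosen genes and carry no test.

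FPKM is scaled to transcript length, and levels of different genes are set beside one another on that scale. Since the identifiers are rat and the labels human, equal detection of the genes is assumed and was not tested, which bears on every sum, ratio and order of levels. The 4 inhibitors summed to 142, 137, 132 and 133 FPKM with PTH and to 195, 215 and 185 FPKM with PBS. The 5 subunits summed to 138, 127, 128 and 125 FPKM with PTH and to 141, 145 and 141 FPKM with PBS. The inhibitor sum was 1.03 to 1.08 times the subunit sum in the PTH libraries and 1.32 to 1.49 times in the PBS libraries, which do not overlap. Nfkbia alone made up 65.8 to 68.2% of the inhibitor sum with PTH and 68.1 to 68.7% with PBS. The other 3 inhibitors summed to 42.2 to 48.0 FPKM with PTH and 58.5 to 68.6 FPKM with PBS. Of these, Nfkbib and Nfkbie overlapped between the groups and only Nfkbiz did not. The separation of the inhibitor sums and of their ratio to the subunit sums thus largely restates the falls of Nfkbia and Nfkbiz. It is no further result and shows no fall of the class as a whole.

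Single pairs were separated too. Each put a member without overlap (Nfkbia, Nfkb1 or Rel) over one that overlapped between the groups (Rela or Nfkb2). The separation of these pairs thus restates the falls given above and is no further result. Nfkbia stood at 1.64 to 1.68 times Rela in the PTH libraries and at 2.17 to 2.73 times Rela in the PBS libraries. The PTH libraries differed little in this ratio, whose mean was 1.66 ± 0.0208 with PTH (SD, n = 4) and 2.47 ± 0.284 with PBS (SD, n = 3). Of the precursor genes, Nfkb1 stood at 0.4999, 0.647, 0.628 and 0.598 times Nfkb2 with PTH and at 0.988, 0.893 and 0.827 times Nfkb2 with PBS. Nfkb1 was thus below Nfkb2 in all 7 libraries, and further below it in every PTH library. Rel stood at 0.0955 to 0.137 times Rela with PTH and at 0.143 to 0.197 times Rela with PBS, where the closest libraries nearly touched. These ratios compare transcripts, not proteins, and since RNA of p105 and p50 is the same they do not separate precursor from product.

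**Figure D4:**
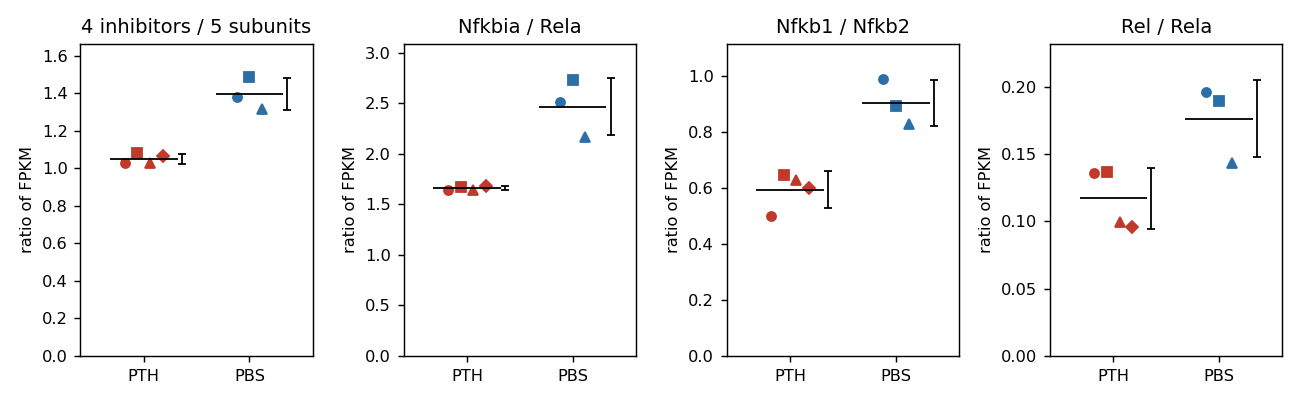
Ratios of FPKM within each library, with mean (line) and SD (bar) for the 4 PTH and 3 PBS libraries and axes from 0. Each of the 4 ratios is lower in all PTH libraries, at 1.03 to 1.08 against 1.32 to 1.49 for inhibitors over subunits. These separations largely restate the lower values of Nfkbia, Nfkbiz, Nfkb1 and Rel.

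The order of the levels differed in the middle of the family. Nfkbia came first and Rela second in all 7 libraries, and Rel came last. In the PTH libraries Nfkb2 came next throughout, whereas in the PBS libraries Nfkb2, Nfkbiz and Nfkb1 followed in varying order at 30.8 to 34.97, 30.6 to 33.8 and 27.0 to 31.2 FPKM. Nfkbie, Relb and Nfkbib ran in this order in PTH libraries 1, 3 and 4 and in another in PTH library 2, and they had a different order in each PBS library.

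Some other genes moved nearly in step with the members that fell. Likeness was the root mean square distance between log2 values over the 7 libraries, after the PBS mean of each gene was subtracted. Tested genes that carry only a placeholder symbol, such as those starting with LOC or AABR, were left out of this search. Closest to Nfkbiz were Rgs2, a brake on G protein signalling, at a distance of 0.056, Rnd1, a small GTPase gene, at 0.096, and Cyr61, a matricellular protein gene, at 0.10. Closest to Nfkbia were Klf4, a transcription factor gene, C1s, a complement protease gene, and Bckdhb, an enzyme of branched amino acid breakdown, at 0.053, 0.056 and 0.065. Closest to Nfkb1 were Ero1a, an oxidase of the endoplasmic reticulum, Gfpt2, an enzyme of hexosamine synthesis, and Pde7a, a cAMP phosphodiesterase, at 0.027, 0.029 and 0.052. They were picked for this likeness, which is given without a test.

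Around the members, 9 lists of pathway genes with 132 entries were examined, of which 130 matched a symbol. Their counts stand beside 7.96% of all tested genes called lower and 3.45% called higher. In the model with the mitochondrial share 1 of all 10662 tested genes was called, and none of the list genes named by the rule kept its call. In the IkB family outside the members, Bcl3, a nuclear IkB protein that works with p50 and p52, fell. It stood at 12.6, 17.0, 11.4 and 12.7 FPKM with PTH and at 21.9, 25.2 and 20.6 FPKM with PBS, and its log2 fold change was -0.72 ± 0.14 (SE), at a limma adjusted p of 0.0281. With the mitochondrial share in the model it stood at -0.35. Its groups did not overlap, and the call held without PTH library 1 or 2 and was lost without each of the other 5 libraries. Nfkbil1 overlapped between the groups (log2 fold change of 0.12, adjusted p of 0.720) and Nfkbid was listed at 0 in all 7 libraries.

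Of 8 tested genes of the IKK complex and related kinases 2 fell and 1 rose, with a median log2 fold change of -0.16. Ikbke and Tbk1, the IKK-related kinases of the interferon branch, fell at log2 fold changes of -0.53 and -0.55 with limma adjusted p of 0.0372 and 0.0391. Ikbkg, the regulatory subunit NEMO of the IKK complex, rose to 17.5, 13.3, 17.2 and 14.3 FPKM with PTH, against 11.4, 10.6 and 10.1 FPKM with PBS (log2 fold change of 0.50, adjusted p of 0.0391). In the model with the mitochondrial share Ikbkg stood at 0.036 (adjusted p of 0.952), Tbk1 at 0.092 and Ikbke at -0.88, and none of these calls held. The catalytic subunit genes Ikbkb and Chuk did not pass, at log2 fold changes of -0.0018 and -0.31. Of these 3 calls, 0 were made without PTH library 3 or 4 or any 1 PBS library. Among 10 genes of IkB ubiquitination 1 fell, where 7.96% of all tested genes did, namely Ube2d3, a ubiquitin-conjugating enzyme, at 83.5 ± 20.7 FPKM with PTH (SD, n = 4) and 162 ± 11.9 FPKM with PBS (SD, n = 3), with an adjusted p of 0.0269 and a log2 fold change of 0.05 in the model with the mitochondrial share. Leaving out PTH library 2 gave that list 5 calls, PTH library 1 gave 3 and each of the other 5 libraries gave 0.

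Of 9 tested receptors 1 fell, where 7.96% of all tested genes did, the TWEAK receptor Tnfrsf12a, at 72.2 ± 5.27 FPKM with PTH (SD, n = 4) and 98.2 ± 2.90 FPKM with PBS (SD, n = 3), with a limma adjusted p of 0.0201. The TNF receptor Tnfrsf1a averaged 89.8 FPKM with PTH and 96.8 FPKM with PBS, and was not called, at an adjusted p of 0.313. The receptor list had 3 calls without PTH library 2 and 0 without PTH library 3 or any 1 PBS library. Of 12 ligand genes only Tnfsf12 reached the filter, at a log2 fold change of 0.16 and an adjusted p of 0.625, and it stood at -0.01 after GC correction. Tnf was listed at 0 in all PTH libraries and at up to 0.204 FPKM in the PBS libraries, and Il1b was listed at 0 throughout.

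Among 22 tested adaptors and ubiquitin ligases 5 fell and 1 rose, with a median of -0.16. Ripk2, a kinase that relays signals from intracellular pattern receptors, fell to 19.8 ± 1.52 FPKM with PTH (SD, n = 4), against 38.9 ± 2.17 FPKM with PBS (SD, n = 3), with an adjusted p of 0.00200. Ripk2 kept its call in all 7 fits without a single library. Tab3 and Bcl10 fell too, at log2 fold changes of -0.99 and -0.43, and Tab1, which activates the kinase TAK1, rose at 0.71 ± 0.11 (SE). In the model with the mitochondrial share Tab3 stood at -0.17 (adjusted p of 0.872) and Bcl10 at -0.16 (0.733), and Bcl10 lost its call after GC correction at -0.23 (0.0806). Calls in this list numbered 9 without PTH library 2, 2 without PTH library 4 or PBS library 3, and 1 without PTH library 3 or PBS library 1 or 2.

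Of 12 brakes outside the IkB family 5 fell and 0 rose. Tnfaip3, the ubiquitin editor A20, fell to 13.9, 13.4, 14.8 and 14.5 FPKM with PTH, against 26.8, 26.9 and 25.2 FPKM with PBS (log2 fold change of -0.85, adjusted p of 0.00200). Tnip3, an A20-binding protein, fell at -1.51 ± 0.17 (SE), and Zc3h12a, the RNase regnase, at -0.68 ± 0.11 (SE). Irak3, an inhibitor of receptor signalling, fell at -0.49. In the model with the mitochondrial share Irak3 stood at -0.16 (adjusted p of 0.586) and Tnip3 at -0.84 (0.246). The list's median was -0.11, and its members Tnip1 and Cyld overlapped between the groups at log2 fold changes of -0.04 and -0.09. Leaving out PTH library 4 gave it 4 calls, PBS library 3 gave 3, PTH library 3 or PBS library 2 gave 2 and PBS library 1 gave 1. Of 13 Rela cofactors and modifiers 1 rose, the kinase gene Rps6ka4, at a log2 fold change of 0.45 (adjusted p of 0.0488) and -0.16 in the model with the mitochondrial share, and it passed only without PTH library 1 or 2 when single libraries were left out.

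Of 29 tested NF-kB response genes 19 fell and 1 rose, with a median log2 fold change of -0.83, beside -0.04 over all tested genes. The list was written with the fall of several of its chemokines already known, so its direction is no independent evidence. The smallest p-values belonged to Ccl7, Cxcl3, Cxcl1 and Ccl20, chemokines with log2 fold changes of -1.72, -1.87, -1.92 and -2.49. Sod2, an antioxidant enzyme, stood at 98.3 FPKM with PTH and 234 FPKM with PBS, and the adhesion gene Icam1 at 78.0 FPKM with PTH and 127 FPKM with PBS. Gadd45b, a stress response gene, rose to 45.1, 37.0, 35.2 and 35.1 FPKM with PTH, against 24.0, 24.9 and 24.5 FPKM with PBS (adjusted p of 0.0187). Calls in the list numbered 8 without PBS library 1 and 10 without PBS library 2.

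**Figure D5:**
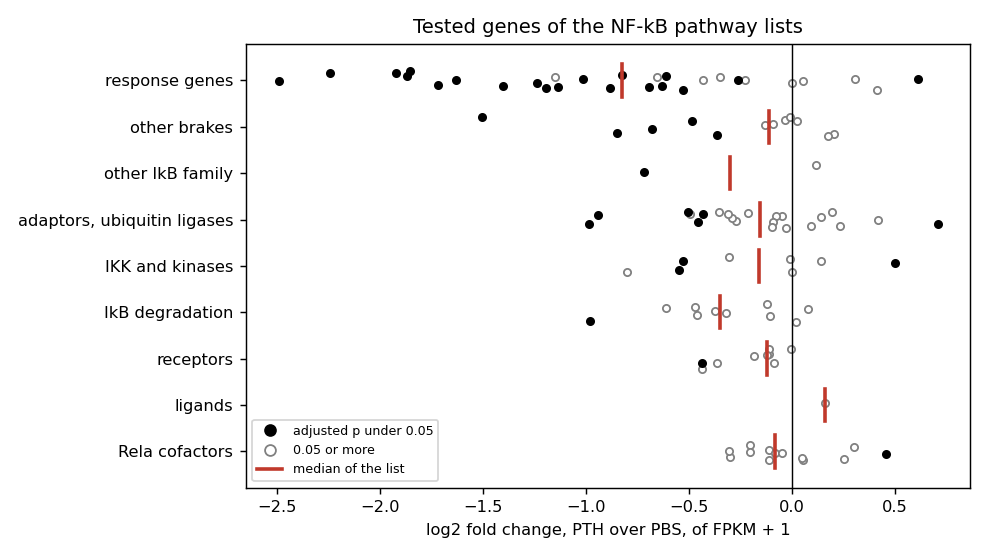
Log2 fold changes, PTH over PBS, of the tested genes of 9 pathway lists (closed points passed at an adjusted p under 0.05, red lines mark list medians). The response genes have a median of -0.83, and the medians of the other 8 lists lie between -0.35 and 0.16.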

How the data were processed

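RNA from 7 libraries labelled LX2 was compared, 4 given PTH and 3 given PBS. The authors deposited FPKM values per gene and library, with a signed fold-change score, a log2 fold change, a p-value and an FDR (a q-value), in tables of 14913 and 7149 genes, per the file headers. The log2 column of the larger table holds 1 value outside the usual log2 range and was checked only as a score. The submitters' processing notes name Bowtie 0.12.2 and mm8 without a role. What program and annotation gave the FPKM values is not given in the sources used here.

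A repeated symbol was represented by its row of highest mean FPKM. Log2(FPKM + 1) was tested with limma 3.58.1 in R 4.3.3, with a variance trend, two-sided, on genes averaging 1 FPKM or more, with calls at an adjusted p (Benjamini-Hochberg) under 0.05. The test was tried on simulated data whose noise was drawn independently for each gene and library. Such data lack trends shared across genes, such as that with GC content, so no result here rests on them. Members and lists were chosen with earlier results of these data known. From each list up to 4 called genes with the smallest p were named, or, with 0 called, the gene of smallest p, and for each member that passed the 3 genes with the closest profile. Other genes with values (Chuk, Ikbkb, Nfkbil1, Tnfrsf1a, Tnf, Il1b, Tnip1, Cyld, Sod2, Icam1, Gadd45b and the markers Tf, Cd14 and Hp) were chosen after their values were seen. On the log2(FPKM + 1) scale a fold change is understated for low genes. Sample quality weights (0.245 to 5.23) used limma's gene-by-gene method, chosen after its REML method had not converged. GC content was read from the longest coding GENCODE v29 transcript of the human gene, found for 88.5% of tested genes, and removed per library by a loess trend. Read depth is unknown, so no counting intervals are given. Relative depth was the most frequent ratio of values between libraries among rows with a mean under 1 FPKM.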

Additional observations from a re-analysis of the deposited data

How the results depend on the processing

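Over all genes, 849 were called lower and 368 higher as reported. These counts were 553 and 212 without a filter on low values, 573 and 664 after quantile normalization, 554 and 593 after median centring, 441 and 184 without a variance trend, and 3245 and 1958 with sample quality weights. With 2 settings chosen after seeing the data they were 523 and 476 after GC correction, and 1 and 0 when the mitochondrial share entered the model. Leaving out single libraries gave 25 (without PBS library 1) to 1925 (without PTH library 2) lower calls and 3 to 825 higher calls. Members called lower numbered 3 as reported, 5 with sample quality weights, 0 with the mitochondrial share and 1 to 5 without single libraries. The 5 with sample quality weights stand beside 3245 lower calls over all genes. Without single libraries the count was 1 without PBS library 1 and 5 without PTH library 2. Those fits also had the fewest and the most lower calls over all genes. Members called higher numbered 0 in all 18 alternatives. Leaving out a library reduces the samples by construction, and for the other settings the cause was not tested.

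The labels do not say whether the replicate numbers pair the libraries. Deviations from the group means correlated at -0.0071, 0.0012 and -0.04 in same-numbered libraries, and at -0.052 to 0.088 in the others. These values show no strong shared deviation, but they cannot settle how the libraries were matched. With the replicate block, in which PTH library 4 has no PBS partner, limma called 17 genes lower and 3 higher, and it called 0 of the 9 members, 4 of which were lower at an unadjusted p under 0.05, against 17.1% of tested genes lower and 11.7% higher.

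Some log2 fold changes turned sign. Rela stood at 0.068 after quantile normalization, 0.064 after median centring, 0.00094 with the replicate block and -0.031 to 0.034 without single libraries. After GC correction Nfkb2 stood at -0.088, Nfkbie at -0.020 and Tnfsf12 at -0.0101. In the model with the mitochondrial share Nfkb2 stood at -0.22, Nfkbib at 0.41, Nfkbie at -0.55, Tbk1 at 0.092, Ube2d3 at 0.050, Tnfsf12 at -0.13 and Rps6ka4 at -0.16. Without single libraries Nfkbie ran from -0.039 to 0.31 and Tnfsf12 from -0.031 to 0.32. Read depth is unknown, so what it limits could not be given.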
